A study of Mus musculus with 8 samples.

Results

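Aminoacyl-tRNA synthetases, the enzymes that load each amino acid onto its tRNA, were examined in bulk RNA sequencing of 8 libraries of mouse thoracic aorta. The 36 genes were taken from a list by name, 20 for the cytosol and 16 for mitochondria (symbols ending in 2), and all 36 were found among the 23993 gene symbols of the table. The Tsc1 knockout group (KO) held 4 libraries from male C57BL/6 mice with Tsc1 fl/fl, Myh11-CreERT2 and mT/mG. The control group (Ctrl) held 4 libraries from males with Tsc1 +/+, Myh11-CreERT2 and mT/mG. Mice of both groups received tamoxifen at 1.5 weeks and were examined at 24 weeks. Myh11-CreERT2 is a tamoxifen-dependent Cre made under the smooth muscle myosin promoter, and mT/mG is a fluorescent reporter of recombination. Deletion is thus directed to smooth muscle. The labels name smooth muscle cells, but the protocol describes crushed aorta with no sorting, so other cells of the vessel contribute. The labels number the libraries 1 to 4 in each group and do not say whether each came from a separate mouse, so p-values speak only to variation among these libraries, part of which may be technical.

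Cytosolic synthetases supply all protein synthesis on cytosolic ribosomes, and 8 of them sit in the multi-synthetase complex, a large assembly held together by scaffold proteins. The mitochondrial enzymes are nuclear-encoded, imported, and charge the tRNAs that translate the mitochondrial genome. Tsc1 encodes hamartin, which with tuberin restrains the growth kinase mTORC1. In cultured cells mTORC1 raises the transcription factor ATF4, and many cytosolic synthetase genes are ATF4 targets, read through a composite ATF4 and C/EBP element (CARE).

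Levels are given as FPKM, which divide a gene's fragments by its transcript length and by library size, so genes may be compared with each other. Relative depth, read from the most frequent ratio among low genes, ran from 0.771 in KO 1 to 2.42 in Ctrl 3 with Ctrl 1 at 1, and absolute depth is unknown. Tsc1 had 2.99, 3.58, 3.37 and 3.71 FPKM in KO 1 to 4, against 4.03, 4.82, 4.95 and 6.32 FPKM in Ctrl 1 to 4, without overlap. The FPKM of the whole gene do not separate deleted from kept exons. The smooth muscle markers were high in every library, with a sum over 7 genes of 11300 to 15100 FPKM in KO and 17230 to 17620 FPKM in Ctrl. Of these 7 genes 4 were called lower in KO (limma adjusted p under 0.05, test described below) and 0 higher. Of the 6 endothelial markers 5 were called lower in KO and 0 higher. Their sums were 101 to 151 FPKM in KO and 192 to 259 FPKM in Ctrl. Over all tested genes 15.0% were called lower. None of the listed markers found in the table was at 0 in all libraries. Fewer cells of a type and less RNA per cell cannot be told apart in these samples, and the part of cell makeup in the synthetase values was not tested.

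Few synthetase genes passed the test for a difference between KO and Ctrl. Genes were compared with limma on log2(FPKM + 1) and called at an adjusted p under 0.05. Of the 20 cytosolic genes 3 rose in KO (Nars, Iars and Rars), 0 fell and 17 were not called. Of the 16 mitochondrial genes 1 rose (Hars2), 0 fell and 15 were not called. Over all 12107 tested genes 32.2% were called, 17.1% as higher and 15.0% as lower. The share of cytosolic genes called higher was 15.0%, close to that background, and the 6.25% of mitochondrial genes was below it. At an unadjusted p under 0.05 there were 7 cytosolic (35.0%) and 5 mitochondrial genes (31.2%), both shares below the 43.2% of all tested genes. The median log2 difference, KO minus Ctrl, was 0.12 for cytosolic genes, -0.10 for mitochondrial genes and 0.01 for all tested genes. Of all calls 53.3% were higher in KO, against 68.7% after scaling each library to the same FPKM sum, a setting chosen after seeing the data. Under that scaling 9 cytosolic and 3 mitochondrial genes were called higher and 0 lower, where 24.4% of all tested genes were called higher and 11.1% lower. The medians were then 0.20 for cytosolic genes, -0.04 for mitochondrial genes and 0.08 for all tested genes, and quantile scaling gave 0.11 and -0.06 for the cytosolic and mitochondrial genes. The 32 genes without a call had 95% intervals reaching from -0.90 (Ears2) to 0.43 (Aars), and for 29 of them the interval lay within 0.5 on either side of 0.

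**Figure D1:**
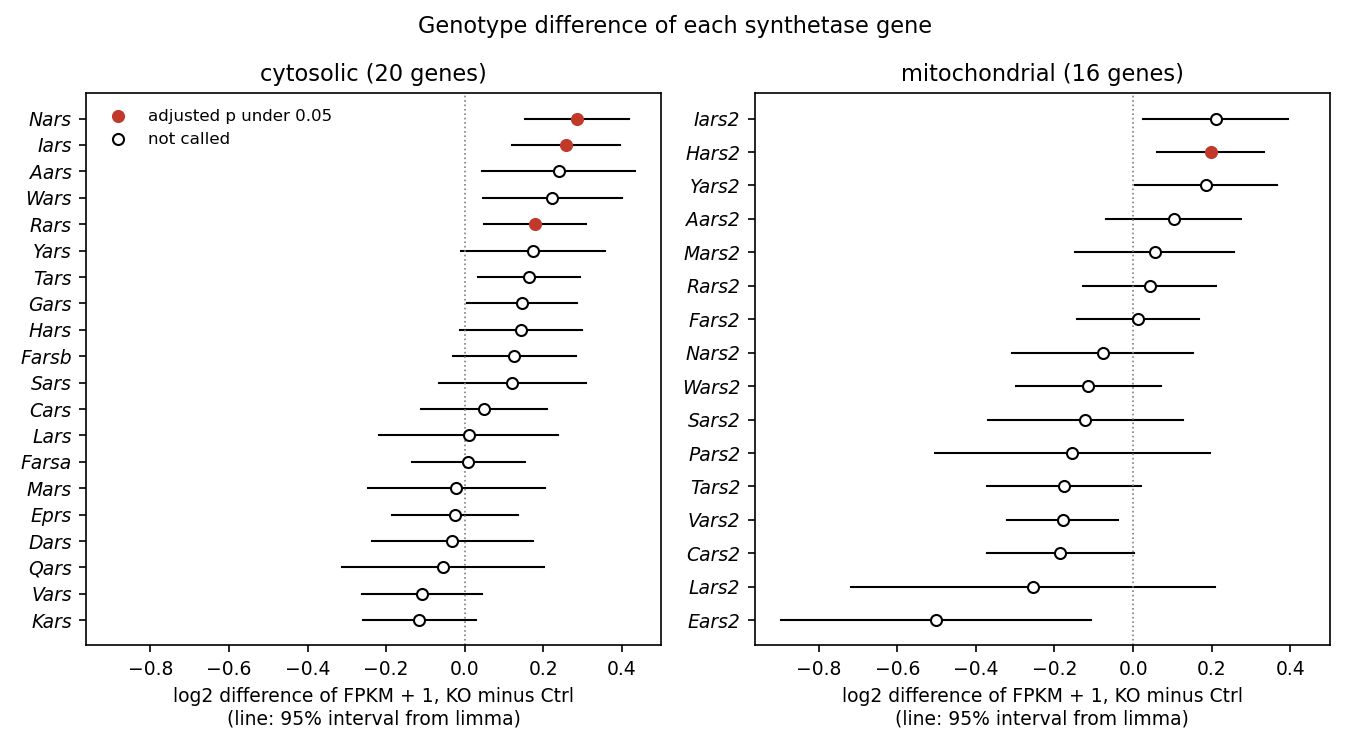
Log2 difference of FPKM + 1, KO minus Ctrl, for each cytosolic (left) and mitochondrial (right) synthetase gene, with points for the estimate, lines for the 95% interval from limma and filled points for adjusted p under 0.05. The called genes are Nars (0.29), Iars (0.26), Rars (0.18) and Hars2 (0.20). Ears2 lies lowest at -0.50, and Lars2 has the widest interval (-0.72 to 0.21).

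Nars, which charges asparagine, was the most abundant cytosolic member and had the largest difference among them. It had 49.9, 53.4, 49.0 and 55.8 FPKM in KO 1 to 4, against 41.3, 44.3, 41.6 and 42.7 FPKM in Ctrl 1 to 4. All KO libraries lay above all Ctrl libraries. The mean was 52.0 ± 3.17 FPKM in KO and 42.5 ± 1.34 FPKM in Ctrl (SD, n = 4 each), a rise of 22.5% (log2 difference 0.29, SE 0.06, limma adjusted p = 0.00632). The difference was 0.25 within the odd-numbered libraries and 0.32 within the even-numbered ones, called in each. Nars lies on chromosome 18.

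Iars, which charges isoleucine within the multi-synthetase complex, had 15.9, 14.7, 14.4 and 14.6 FPKM in KO 1 to 4, against 12.2, 11.6, 13.4 and 12.1 FPKM in Ctrl 1 to 4. The groups again did not overlap, with Ctrl 3 nearest to the KO libraries. The mean was 14.9 ± 0.674 FPKM in KO and 12.3 ± 0.756 FPKM in Ctrl (log2 difference 0.26, SE 0.06, limma adjusted p = 0.0122). Within the odd-numbered libraries alone the difference was 0.23 and the call was lost (adjusted p = 0.133), and within the even-numbered ones it was 0.29 and kept. Of the 4426 bases of the longest Iars transcript (chromosome 13, 49682100 to 49734267 in GRCm38), 49.9% are at least 95% identical to transcripts of the predicted gene Gm4849, so fragments of these could be counted together.

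Rars, which charges arginine and belongs to the same complex, had 27.4, 30.1, 27.7 and 27.4 FPKM in KO 1 to 4, against 25.4, 24.3, 25.9 and 23.4 FPKM in Ctrl 1 to 4. The groups did not overlap, and KO 2 stood above the other KO libraries. The mean was 28.1 ± 1.30 FPKM in KO and 24.7 ± 1.11 FPKM in Ctrl (log2 difference 0.18, SE 0.06, limma adjusted p = 0.0404). This call was the least stable of the 3. It was lost within the odd-numbered libraries (0.10), within the even-numbered ones (0.26), with median-of-ratios scaling (adjusted p = 0.0565), with a fat cell marker covariate (adjusted p = 0.0704), without a mean-variance trend, and when any 1 library other than Ctrl 3 was left out (0.15 to 0.19, adjusted p = 0.0562 to 0.103). Rars lies on chromosome 11, 35808381 to 35834506.

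Among cytosolic genes without a call, Aars, Wars and Yars had the largest differences. Aars, which charges alanine, had 30.6, 33.8, 30.1 and 34.4 FPKM in KO 1 to 4, against 23.0, 29.0, 28.4 and 28.4 FPKM in Ctrl 1 to 4. No KO library overlapped the Ctrl range, and Ctrl 1 was well below the other controls (log2 difference 0.24, SE 0.09, limma adjusted p = 0.0631). Aars (chromosome 8, 111033144 to 111057664) shares 1403 exon bases with other genes, chiefly Exosc6 on the same strand, which had a log2 difference of 0.10 and no call. Wars, which charges tryptophan and is inducible by interferon gamma, had 23.0, 20.5, 22.8 and 21.1 FPKM in KO 1 to 4, against 18.6, 17.1, 21.3 and 17.5 FPKM in Ctrl 1 to 4. Ctrl 3 lay inside the KO range (log2 difference 0.22, SE 0.08, limma adjusted p = 0.0559), and without it the difference was 0.29 and called (adjusted p = 0.0164). Yars, which charges tyrosine, had 17.3, 17.8, 15.0 and 17.0 FPKM in KO 1 to 4, against 12.9, 14.6, 15.4 and 16.2 FPKM in Ctrl 1 to 4. KO 3 fell within the Ctrl range (0.17, SE 0.08, limma adjusted p = 0.133).

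The other cytosolic members had smaller differences and no call. Tars (threonine) had 23.3 to 26.003 FPKM in KO and 21.1 to 23.2 FPKM in Ctrl without overlap (log2 difference 0.16, limma adjusted p = 0.0576). Gars, which charges glycine in both the cytosol and mitochondria, had 30.4 to 34.1 FPKM in KO and 27.3 to 31.3 FPKM in Ctrl (0.15). Hars (histidine) had 28.2 to 33.3 FPKM in KO and 26.2 to 28.9 FPKM in Ctrl (0.14). For both genes the KO range was shifted up and overlapped the Ctrl range. Farsb, the beta subunit of the phenylalanine enzyme, had 15.7 to 17.6 FPKM in KO and 13.6 to 16.4 FPKM in Ctrl (0.13), and Farsa, the alpha subunit, 12.6 to 14.4 FPKM in KO and 12.7 to 14.3 FPKM in Ctrl (0.01). Sars (serine) had 23.5 to 26.5 FPKM in KO and 20.8 to 25.6 FPKM in Ctrl (0.12).

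Of the cytosolic genes nearest to 0, Cars (cysteine) had 9.64 to 11.4 FPKM in KO and 9.16 to 10.8 FPKM in Ctrl (log2 difference 0.05). Lars, which charges leucine and is also known as a leucine sensor for mTORC1, had 11.4 to 15.5 FPKM in KO and 12.4 to 14.6 FPKM in Ctrl (0.01), the KO range enclosing the Ctrl range. Mars (methionine) had 13.3 to 16.6 FPKM in KO and 12.8 to 16.6 FPKM in Ctrl (-0.02). Eprs, which joins the glutamate and proline enzymes in 1 protein, had 24.0 to 27.6 FPKM in KO and 24.3 to 27.8 FPKM in Ctrl (-0.03). Dars (aspartate) had 26.3 to 35.9 FPKM in KO and 30.1 to 32.0 FPKM in Ctrl (-0.03), and Qars (glutamine) 23.7 to 32.5 FPKM in KO and 26.012 to 32.5 FPKM in Ctrl (-0.06). The signs of Dars, Eprs, Farsa, Lars, Mars and Qars turned under at least 1 alternative setting, never with a call. Vars (valine) had 11.6 to 13.5 FPKM in KO and 12.8 to 14.8 FPKM in Ctrl (-0.11). Kars, which charges lysine in both compartments, had 40.2 to 44.0 FPKM in KO and 41.5 to 48.4 FPKM in Ctrl (-0.12). Vars and Kars stayed below 0 under all 19 alternatives without a call.

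**Figure D2:**
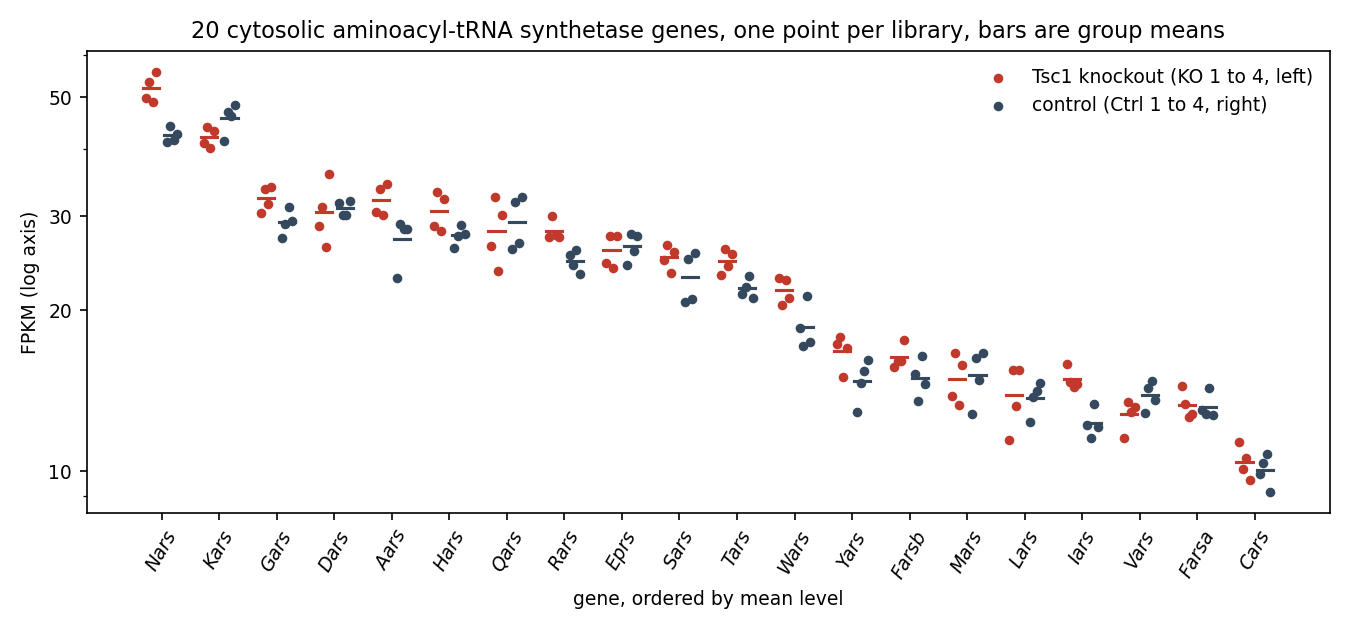
FPKM (log axis) of the 20 cytosolic synthetase genes in each library, KO left of Ctrl, ordered by mean level, with bars for group means. Nars (KO mean 52.0 FPKM, Ctrl mean 42.5 FPKM) and Kars lead, Cars is lowest, and the groups separate fully for Nars, Aars, Rars, Tars and Iars.

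Levels of the cytosolic genes spanned a narrow range. Their means over the 8 libraries ran from 10.2 FPKM (Cars) to 47.3 FPKM (Nars), with a median of 23.7 FPKM, against 10.9 FPKM for all tested genes. Neighbours in this order were close: Gars, Dars, Aars, Hars and Qars all averaged between 28.7 and 30.9 FPKM, with overlapping values. All KO libraries lay above all Ctrl libraries for 5 of the 20 genes, and below for 0. Over all tested genes 33.9% did not overlap, 18.3% with KO above and 15.6% with KO below.

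The members of the multi-synthetase complex and the cytosolic enzymes outside it gave different medians. The 8 complex members (Dars, Eprs, Iars, Kars, Lars, Mars, Qars and Rars) had a median log2 difference of -0.02, with 2 called higher and 5 below 0. The 12 enzymes outside this complex had a median of 0.14, with 1 called higher and 11 above 0, Vars being the exception. Under the scaling to equal FPKM sums the medians were 0.05 and 0.22, and 7 of the 8 complex members were above 0. By catalytic fold, the 9 class I members had a median of 0.05 with 2 called, and the 10 class II members 0.13 with 1 called. The 13 members known as ATF4 targets from cell culture had a median of 0.14 with 2 called, and the other 7 had 0.01 with 1 called. Over these groupings the share called higher ran from 8.33% (enzymes outside the complex) to 25.0% (complex members), against 17.1% of all tested genes. Each share rests on 1 or 2 called genes, too few to tell the groups apart. These groupings share members, and the differences between them were not tested.

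The promoters were read for CARE letters, since several cytosolic synthetases are known ATF4 targets. The letters TGATGNAA (N for any base) were searched on both strands in RefSeq promoter windows of build GRCm38.p6, which run from 250 bases before to 50 bases after a gene's start. Such windows were matched for 13 cytosolic and 14 mitochondrial members, and not for Cars, Hars, Lars, Nars, Rars, Vars, Wars, Hars2 and Pars2. The letters were found in 5 of the 13 cytosolic genes (38.5%) and in 0 of the 14 mitochondrial genes. They were held by 4.51% of the 27025 genes with RefSeq promoters. A match from each of the 5 genes is shown because these genes lie on the upper side of the comparison, each 5′ to 3′ on the gene's strand with the match in capitals. All those shown but the Yars match read as the reverse complement. Aars held another match, 112 bases before the start, which is not shown.
Aars, chr8:111033840-111033869, plus strand, from base 10 after the start: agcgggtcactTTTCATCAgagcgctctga
Gars, chr6:55037960-55037989, plus strand, 30 bases before the start: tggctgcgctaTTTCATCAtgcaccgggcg
Iars, chr13:49682126-49682155, plus strand, from base 8 after the start: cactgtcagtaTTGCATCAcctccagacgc
Tars, chr15:11399659-11399684, minus strand, 15 bases before the start: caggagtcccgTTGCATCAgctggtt
Yars, chr4:129189895-129189924, plus strand, from base 4 after the start: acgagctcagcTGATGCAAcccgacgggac

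The 5 genes with these letters had log2 differences of 0.15 (Gars) to 0.26 (Iars), with a median of 0.17. The 8 cytosolic genes without them (Dars, Eprs, Farsa, Farsb, Kars, Mars, Qars and Sars) ran from -0.12 to 0.13, with a median of -0.02. Under the scaling to equal FPKM sums the medians were 0.25 with the letters and 0.05 without. The 2 ranges did not overlap, although Iars alone of the 5 was called. The cytosolic genes without a matched window are in neither set. They include the called Nars and Rars and ran from -0.11 (Vars) to 0.29 (Nars), so the separation holds only for the 13 matched genes. Over 19 alternative settings the median stayed higher with the letters in all 19, and the ranges stayed apart in 12. The separation was lost within the odd-numbered and the even-numbered libraries alone, with a fat cell marker covariate, and without KO 2, Ctrl 1, Ctrl 2 or Ctrl 4. The difference between the sets was not tested, and a match is a description of letters, not of binding.

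**Figure D3:**
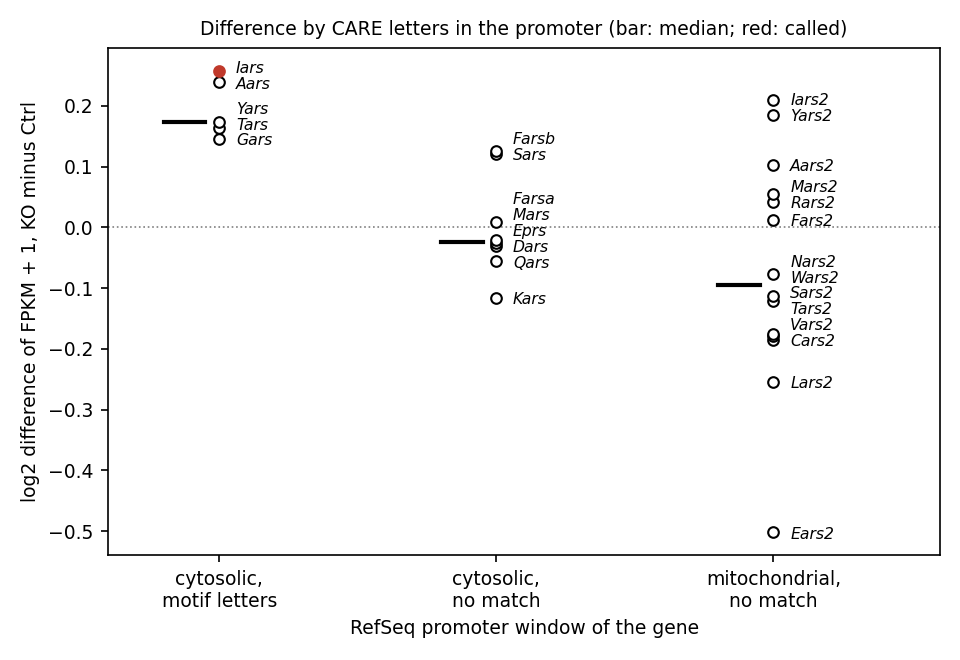
Log2 difference of FPKM + 1, KO minus Ctrl, of the synthetase genes with a RefSeq promoter window, grouped by location and by the presence of TGATGNAA, with bars for medians and filled points for called genes. The 5 cytosolic genes with the letters (0.15 to 0.26) lie above the 8 without (-0.12 to 0.13). The called genes Nars, Rars and Hars2 had no matched window and are not drawn.

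Hars2, which charges histidine in mitochondria, was the mitochondrial gene that rose. It had 10.4, 10.2, 9.47 and 9.39 FPKM in KO 1 to 4, against 8.49, 8.47, 7.94 and 8.96 FPKM in Ctrl 1 to 4. All KO libraries were above all Ctrl libraries. The mean was 9.86 ± 0.507 FPKM in KO and 8.47 ± 0.415 FPKM in Ctrl (log2 difference 0.20, SE 0.06, limma adjusted p = 0.0338). The call was lost within the odd-numbered (0.25) and the even-numbered libraries (0.15), with quantile scaling (adjusted p = 0.0585), with the fat cell covariate (adjusted p = 0.0691), and without any 1 library other than KO 4 or Ctrl 4 (0.17 to 0.21). Hars2 and Hars lie head to head on chromosome 18 and share 195 exon bases on opposite strands, and the strand setting of the counting is not given in the sources used here.

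Ears2, the mitochondrial glutamate enzyme, had the largest difference of all 36 genes and no call. It had 1.90, 1.17, 2.11 and 1.40 FPKM in KO 1 to 4, against 3.23, 2.21, 3.64 and 1.99 FPKM in Ctrl 1 to 4. Odd-numbered libraries were above even-numbered ones within each group, so KO 3 exceeded Ctrl 4 while the groups were separate among odd and among even numbers. The mean was 1.64 ± 0.438 FPKM in KO and 2.77 ± 0.794 FPKM in Ctrl, a difference of means of -40.6% (log2 difference -0.50, SE 0.17, limma adjusted p = 0.0548). The difference was -0.56 within the odd-numbered libraries (adjusted p = 0.0189) and -0.44 within the even-numbered ones (adjusted p = 0.0463). It was -0.50 and called when odd against even numbering was added to the model. With 0.1 in place of 1 added to the FPKM it was -0.71 and not called (limma adjusted p = 0.0526). Ears2 lies on chromosome 7, 122037213 to 122067263.

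Iars2, the mitochondrial isoleucine enzyme, had 22.6, 27.4, 25.9 and 27.8 FPKM in KO 1 to 4, against 20.1, 23.7, 21.9 and 23.4 FPKM in Ctrl 1 to 4. KO 1 lay inside the Ctrl range (log2 difference 0.21, SE 0.08, limma adjusted p = 0.0798). Without KO 1 the difference was 0.27 and called (adjusted p = 0.0276). Iars2 (chromosome 1, 185284726 to 185329396) shares 2148 exon bases with genes on the other strand, chiefly Rab3gap2, which had a log2 difference of -0.03. Vars2 (mitochondrial valine enzyme) had 3.64, 3.47, 3.40 and 3.74 FPKM in KO 1 to 4, against 4.27, 4.33, 3.94 and 4.11 FPKM in Ctrl 1 to 4. All KO libraries were below all Ctrl libraries, without a call (-0.18, SE 0.06, limma adjusted p = 0.0558). Vars2 shares 465 exon bases with Gm20483 on the other strand.

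The remaining mitochondrial genes had no call and overlapping groups. Yars2 (tyrosine) had 5.995 to 6.96 FPKM in KO and 5.09 to 6.38 FPKM in Ctrl (log2 difference 0.19, limma adjusted p = 0.108). Aars2 (alanine) had 4.93 to 5.72 FPKM in KO and 4.30 to 5.19 FPKM in Ctrl (0.10). Rars2 (arginine) had 5.15 to 6.05 FPKM in KO and 4.93 to 5.78 FPKM in Ctrl (0.04). Fars2, a single-subunit phenylalanine enzyme, had 15.8 to 16.8 FPKM in KO and 14.2 to 17.4 FPKM in Ctrl (0.01), the KO values lying within the Ctrl range. Below 0, Cars2 (cysteine) had 8.74 to 10.5 FPKM in KO and 9.89 to 12.3 FPKM in Ctrl (-0.18), and Tars2 (threonine) 8.22 to 10.5 FPKM in KO and 9.89 to 11.6 FPKM in Ctrl (-0.18).

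Pars2, Sars2, Wars2, Nars2 and Mars2 were, like Ears2, under 4 FPKM in every library, where log2(FPKM + 1) understates a change. Pars2 (proline) had 2.16 to 3.24 FPKM in KO and 2.33 to 3.92 FPKM in Ctrl (-0.15). Sars2 (serine) had 2.48 to 3.14 FPKM in KO and 2.68 to 3.99 FPKM in Ctrl (-0.12). Wars2 (tryptophan) had 1.50 to 1.71 FPKM in KO and 1.68 to 1.95 FPKM in Ctrl (-0.11). These ranges overlapped, narrowly for Wars2. Nars2 (asparagine) had 1.22 to 1.76 FPKM in KO and 1.48 to 1.89 FPKM in Ctrl (-0.08), and Mars2 (methionine) 1.75 to 2.16 FPKM in KO and 1.56 to 2.04 FPKM in Ctrl (0.05). The signs of Nars2, Mars2, Rars2 and Fars2 turned under some alternatives, without a call.

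**Figure D4:**
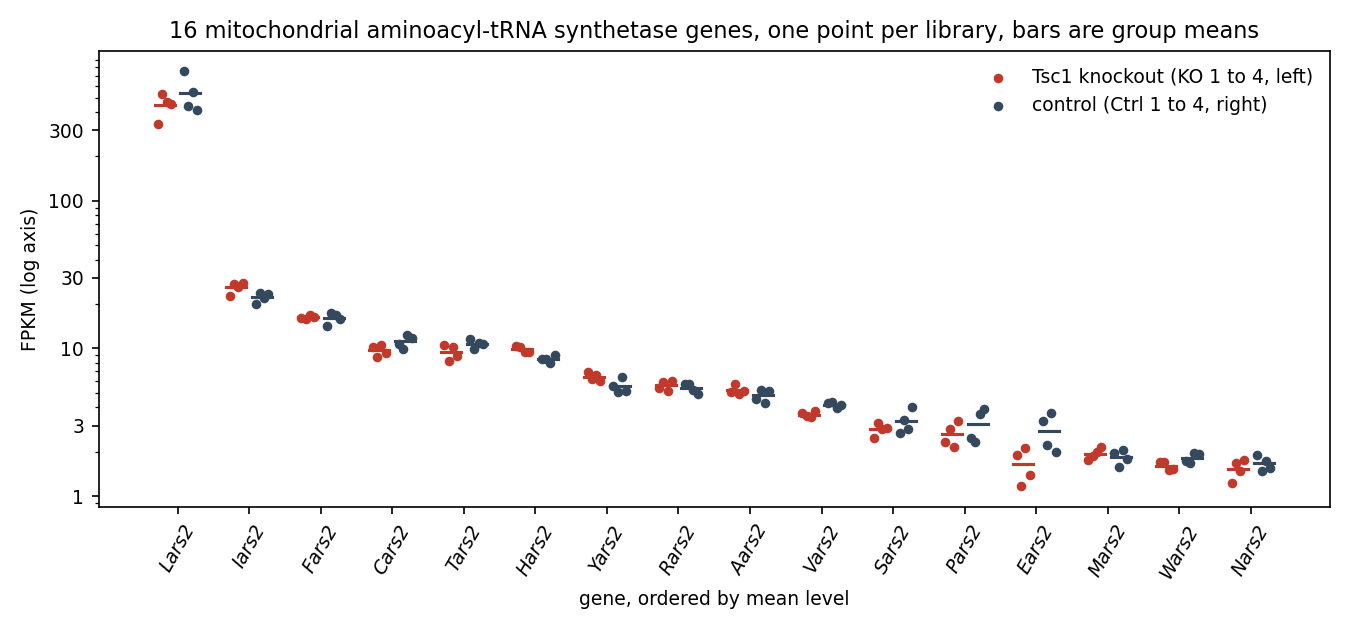
FPKM (log axis) of the 16 mitochondrial synthetase genes in each library, KO left of Ctrl, ordered by mean level, with bars for group means. Lars2 stands at 330.3 to 526 FPKM in KO and 415 to 751 FPKM in Ctrl, far above Iars2, the next gene, at 22.6 to 27.8 FPKM in KO and 20.1 to 23.7 FPKM in Ctrl.

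Lars2, which charges leucine in mitochondria, stood apart in level from all other synthetases. It had 330.3, 526, 469 and 449 FPKM in KO 1 to 4, against 751, 435, 549 and 415 FPKM in Ctrl 1 to 4. The groups overlapped, with KO 1 lowest and Ctrl 1 highest (log2 difference -0.25, SE 0.20, 95% interval -0.72 to 0.21, limma adjusted p = 0.373). The sign of the difference turned between the odd-numbered libraries (-0.70) and the even-numbered ones (0.19). Without Lars2 the summed level of the other 15 mitochondrial genes was steady, at 102 to 105 FPKM in KO and 99.3 to 106 FPKM in Ctrl. Lars2 lies on chromosome 9, 123366927 to 123462666, and no stretch of 100 bases of its longest annotated transcript was at least 95% identical to an annotated transcript of another gene. That transcript has 3894 bases, against 11089 exon bases of the gene. The ribosomal RNA precursor sequence was not added to the search, so sequence shared with it was not tested.

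Lars2 moved across the libraries with Rn45s, the row for the ribosomal RNA precursor, a relation noticed after the values were seen. Rn45s had 2516, 4938, 5105 and 4819 FPKM in KO 1 to 4, against 6929, 3866, 4986 and 3496 FPKM in Ctrl 1 to 4. Lars2 amounted to 9.19% to 13.1% of the Rn45s value in KO libraries and 10.8% to 11.9% in Ctrl libraries. Over the 8 libraries Pearson's r on the log2 scale was 0.93 (exact permutation p = 0.00159, two-sided) and Spearman's rho 0.93 (exact permutation p = 0.00223). Adjusted over the 36 synthetase genes these were 0.0571 and 0.0804, which do not pass. Nars2 had a Pearson's r of 0.88 with Rn45s over the same libraries (adjusted exact permutation p = 0.0973). Without the 2 libraries farthest from the median of Rn45s, KO 1 and Ctrl 1, r was 0.76 for Lars2. It was larger for other synthetases, among them Yars2 (0.95), Wars (0.94) and Iars (0.86), so a high r there was not particular to Lars2. Over all 8 libraries Yars2, Wars and Iars had r of -0.15, -0.11 and -0.28. In the remaining 6 libraries Rn45s was 4819 to 5105 FPKM in KO and 3496 to 4986 FPKM in Ctrl. Yars2, Wars and Iars had positive log2 differences (0.19, 0.22 and 0.26), so r and genotype cannot be told apart in those 6 libraries. The odd-numbered and the even-numbered libraries are 4 each, too few for a value within either. Among all tested genes Lars2 ranked 5 by its r with Rn45s. The libraries were selected for polyA tails, and the part of ribosomal RNA fragments in the Lars2 values was not tested.

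**Figure D5:**
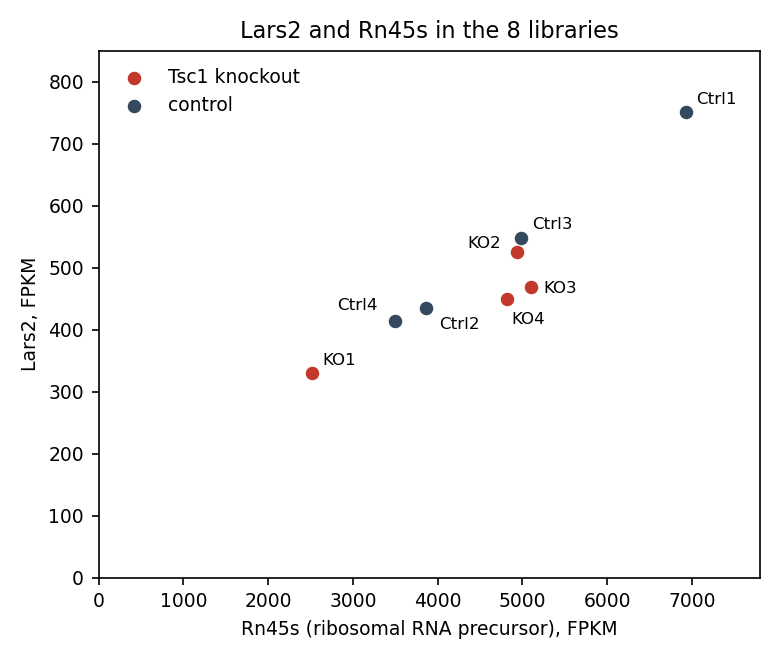
FPKM of Lars2 against FPKM of Rn45s in each library, with both axes from 0 and 1 point per library. KO 1 is lowest on both axes (330.3 and 2516 FPKM), Ctrl 1 highest (751 and 6929 FPKM), and KO and Ctrl libraries intermingle between them.

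Setting each cytosolic enzyme beside its mitochondrial counterpart gave 17 pairs by amino acid, with Fars2 and Eprs each used in 2 of them. The cytosolic gene had the higher level in 12 of 17 pairs, from 2.31 times (Tars over Tars2) to 29.6 times (Nars over Nars2). It had the lower level in the others, 0.982 times for cysteine and 0.821 and 0.969 times for the 2 phenylalanine subunits. For isoleucine it was 0.565 times and for leucine 0.0282 times. The leucine value rests on Lars2, where the part of ribosomal RNA fragments was not tested. The differences had the same sign in 10 pairs, both above 0 in 7 and both below 0 in 3. In 6 pairs the cytosolic gene was above 0 and the mitochondrial one below it, as for asparagine (0.29 and -0.08) and tryptophan (0.22 and -0.11). Methionine was the reverse (-0.02 and 0.05). Isoleucine was the pair with both differences above 0.2 (0.26 and 0.21), and histidine followed with 0.14 and 0.20.

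Some synthetases separated by replicate number and not by genotype. Qars had 32.5 and 30.2 FPKM in KO 2 and 4 and 26.4 and 23.7 FPKM in KO 1 and 3, against 31.9 and 32.5 FPKM in Ctrl 2 and 4 and 26.012 and 26.7 FPKM in Ctrl 1 and 3. All even-numbered libraries were above all odd-numbered ones, whatever the genotype. The same held for Eprs, Mars, Sars, Aars2 and Sars2, 6 of 36 genes in all, and the reverse for 0. Over all tested genes 9.59% separated by odd and even number, 5.77% with even above and 3.82% with even below. The labels give no meaning to the numbers, and what differs between odd and even libraries was not tested.

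Of the 17 tested genes that work beside the synthetases, 2 rose, 2 fell and 13 were not called. These were 11.8% in each direction, below the 17.1% higher and 15.0% lower of all tested genes, with a median log2 difference of 0.08. Dtd1, which removes D-amino acids from tRNA, rose, with 22.6 ± 1.31 FPKM in KO and 15.4 ± 1.34 FPKM in Ctrl (log2 difference 0.52, limma adjusted p = 0.00103). Pstk, the kinase that acts on serine-charged selenocysteine tRNA, fell to 9.60 ± 1.07 FPKM in KO, against 13.6 ± 0.843 FPKM in Ctrl (-0.46, limma adjusted p = 0.00342). Aarsd1, an alanyl-tRNA editing protein, fell by 0.37. The scaffolds of the multi-synthetase complex were not called, with differences of -0.22 for Aimp1 (adjusted p = 0.0704), -0.24 for Aimp2 (adjusted p = 0.0687) and 0.11 for Eef1e1.

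Of 35 tested genes of tRNA transcription and maturation, 6 rose, 1 fell and 28 were not called, with a median of 0.08. The 17.1% that rose equalled the share of all tested genes, and the 2.86% that fell was below it. Trmt6, a subunit of the enzyme that methylates adenosine in tRNA, had 6.60, 7.01, 5.50 and 6.76 FPKM in KO 1 to 4, against 3.28, 3.32, 3.37 and 4.18 FPKM in Ctrl 1 to 4. The groups did not overlap (log2 difference 0.72, limma adjusted p = 6.86e-04). Polr3k and Crcp, subunits of RNA polymerase III, rose by 0.52 and 0.38. Trmt1, a tRNA guanosine methyltransferase, fell by 0.39.

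The list of ATF4 targets other than synthetases also held Atf4 itself. Of its 29 tested genes 6 rose and 6 fell (20.7% each, near the shares of all tested genes), with a median of 0.05. Sesn2 (sestrin 2, a leucine sensor) rose by 0.89, Psat1 by 0.88 and Phgdh by 0.70, the last 2 being serine synthesis enzymes. Atf5, a stress transcription factor, fell by 0.67, and Atf4 itself had 93.1 ± 12.3 FPKM in KO and 129.7 ± 12.2 FPKM in Ctrl (-0.48, limma adjusted p = 0.00976). Of the genes on this list with RefSeq promoters, 9 of 28 held the TGATGNAA letters (32.1%).

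Of 18 tested interferon response genes, read because of Wars, 5 rose (27.8%) and 3 fell (16.7%), with a median of 0.02. Over all tested genes 17.1% were called higher and 15.0% lower, so the share that fell was near that of all genes. Ifit2 and Ifit3, antiviral proteins induced by type I interferon, rose by 1.47 and 1.39. Gbp4, a guanylate-binding protein induced by interferon gamma, fell by 0.86, and Psmb8, an immunoproteasome subunit, by 0.68. By the profile over the 8 libraries, the genes most like the mean of the standardized cytosolic members were Asb8, Tbc1d9, Atf6, Mettl13 and Alkbh8 (Pearson's r 0.98 to 0.96, 8 libraries of unequal depth, given as a description).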

How the data were processed

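Thoracic aortas, 4 KO and 4 Ctrl libraries, were measured by RNA sequencing, after polyA selection from 500 ng of total RNA (RIN above 7), per the labels' protocols. The deposited values are FPKM, 1 column per library. TopHat2, Cufflinks, Cuffdiff and the build mm10 are named, without roles, per the submitters' processing notes. Annotation and strand setting were not given in the sources used here. All value columns were used as deposited. The deposited values summed to 453564 to 467703 in KO libraries, and to 753105, 937271, 593264 and 483615 in Ctrl 1 to 4, so Ctrl 1 to 3 stood apart. With rows of small RNAs left out, KO libraries summed to 451980 to 466802 and Ctrl libraries to 481940 to 490078.

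Genes averaging 1 FPKM or more over the 8 libraries (12107) were tested on log2(FPKM + 1) with limma 3.58.1 in R 4.3.3 (eBayes, trend on), two-sided, genotype as the only term, with Benjamini-Hochberg adjustment over all tested genes. Differences are KO minus Ctrl. The procedure was tested on simulated data. Transcript similarity used BLAST 2.17.0 and GENCODE M21 (GRCm38). The members and lists were chosen with earlier results of these data known. Full values were given for every called member and for the 3 largest uncalled differences per compartment, up to 4 called genes were named per other list, and likeness was Pearson's r. Some items on the lists are counted but not reported here by name. Alternatives were other pseudocounts, filters, scalings, covariates, variance models, splits by number and leaving out each library. Vars2, Atf4, the complex scaffolds, the genes separated by number and Rn45s were named after their values were seen.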

Additional observations from a re-analysis of the deposited data

Results flagged for a closer look

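Among the 72 sets of 4 libraries (36 genes, 2 groups), 2 held a library far from its group by Dixon's criterion, where chance gives about 1 in 20. Rars had 30.1 FPKM in KO 2, with the other KO libraries at 27.4 to 27.7 FPKM. Without KO 2 the log2 difference was 0.15 and the call was lost (limma adjusted p = 0.103). Aars had 23.0 FPKM in Ctrl 1, with the other Ctrl libraries at 28.4 to 29.0 FPKM. Without Ctrl 1 the log2 difference was 0.16 and it was not called, as with all libraries.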

How the results depend on the processing

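Of 684 synthetase log2 differences under 19 alternatives, 24 lost a call, 38 gained one and 0 turned direction with a call. Nars was called in 19 alternatives, Iars in 18, Hars2 in 9 and Rars in 6. The causes were not tested. Cytosolic genes called higher (3) numbered 6 with odd or even number as a term, 1 in odd-numbered and 7 in even-numbered libraries, and 9 with equal FPKM sums, a setting chosen after seeing the data. Of all tested genes 21.8%, 13.6%, 13.3% and 24.4% were called higher in these settings, against 17.1%. Mitochondrial genes called higher (1) numbered 0 with quantile scaling, odd-numbered libraries or the fat cell covariate, 3 with the odd or even term and 3 with equal sums, and 0 to 1 without 1 library. Mitochondrial genes called lower (0) numbered 3 with the odd or even term, 1 with median-of-ratios or quantile scaling, no trend, odd-numbered or even-numbered libraries, and 0 to 1 without 1 library. Genes of tRNA transcription and maturation (7) numbered 11 with the odd or even term and with equal sums, and 4 in odd-numbered libraries. Interferon response genes (8) numbered 4 in even-numbered libraries. With a replicate block, 4 cytosolic and 2 mitochondrial genes were called higher and 1 mitochondrial gene lower, 4471 of all genes were called, and Rars was not (adjusted p = 0.0541). The deviations of genes from their group means correlated by 0.0656, 0.138, 0.135 and 0.173 between same-numbered libraries. Between differently numbered libraries that were both odd or both even they correlated by 0.016 (KO 4 with Ctrl 2) to 0.160 (KO 2 with Ctrl 4). This range overlaps that of the same-numbered libraries, so the numbers were not taken as pairs. Between an odd and an even library all correlations were negative, from -0.193 (KO 2 with Ctrl 3) to -0.0547 (KO 1 with Ctrl 2). The main model has no odd or even term. With that term 4989 of all tested genes were called, against 3893 in the main fit. Absolute depth is unknown, which limits what can be said of genes under 4 FPKM.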
